A study of Mus musculus with 2 samples.

Results

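The Postn-high set is a group of cells from the Zbtb16 knockout library that carry much RNA for periostin. They carry little for heart muscle actin or for a group of 4 other genes. It was taken from knockout barcodes with at least 15000 UMIs, at least 500 genes and at most 10% of UMIs from mitochondrially encoded genes, where a UMI marks 1 captured RNA molecule. A cell entered the set with at least 200 CPM of Postn (UMIs of a gene per 1000000 UMIs of the cell), under 3 UMIs of Actc1, and under 4 UMIs of Prrx1, Bnc2, Col14a1 and Tac2 added together. This left 905 of 9449 knockout cells, or 9.58% (95% exact binomial interval 8.99 to 10.2), out of 15803 cells in both libraries. The series has 1 Zbtb16 knockout library and 1 wild-type control library, both of the mouse embryonic stem cell line D3 on day 6 of differentiation towards cardiomyocytes. Neither the edited stretch of Zbtb16 nor the number of knockout clones is given in the sources used here. The stated purpose was to learn which subpopulation of cardiovascular progenitors Zbtb16 acts on.

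Periostin, the product of Postn, is a secreted protein that binds collagen and integrins and is known from heart valves, cardiac fibroblasts and healing tissue. Fibrillar collagens are the rope-like proteins of connective tissue, made as procollagen chains, folded with the help of chaperones in the endoplasmic reticulum, and joined outside the cell by lysyl oxidases. The small proteoglycans decorin and lumican, from Dcn and Lum, bind collagen fibrils and regulate their assembly. Mesenchymal cells of the early embryo lay down such matrix while they still express factors of lateral and extraembryonic mesoderm such as Hand1.

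The libraries held 357324373 UMIs in the knockout and 308465930 in the control, over all barcodes. Cells of 1 library are not replicates, so no comparison was tested, and every interval covers counting error only. The set was shallower than the cells around it, with a median of 25861 UMIs and 5591 genes per cell, against 31074 UMIs and 5995 genes in the other knockout cells. Its median mitochondrial share was 5.29%, against 4.99%. The limits on Actc1 and on the other 4 genes are fixed numbers of UMIs, which a shallow cell meets more easily. When every cell was first thinned to 15000 UMIs, 17.8% of knockout cells met the limits. Knockout and control cells shared 16 barcodes, of which 3 belonged to the set, and no doublet caller was run.

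Postn chose these cells, so its level is a description. It ran from 200.1 to 4964 CPM per cell, with a median of 553 CPM and quartiles of 352 and 947 CPM. In UMIs this was 4 to 136 per cell, with a median of 15. The lowest 10 members had 200.1 to 204.7 CPM, and the 10 cells just below the limit had 196.2 to 198.5 CPM, so the set has no gap at its lower edge. Cells that met the other limits numbered 58 between 180 and 200 CPM, against 39 members between 200 and 220 CPM. Of all knockout cells, 2098 had at least 200 CPM of Postn. The limit on Prrx1, Bnc2, Col14a1 and Tac2 removed 1191 of them and the Actc1 limit 3. Tac2, a neuropeptide precursor gene, alone reached 4 UMIs in 780 of the 2098, Bnc2, a zinc finger gene, in 272, Prrx1, a limb and mesenchyme homeobox gene, in 29, and Col14a1 in 28.

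**Figure D1:**
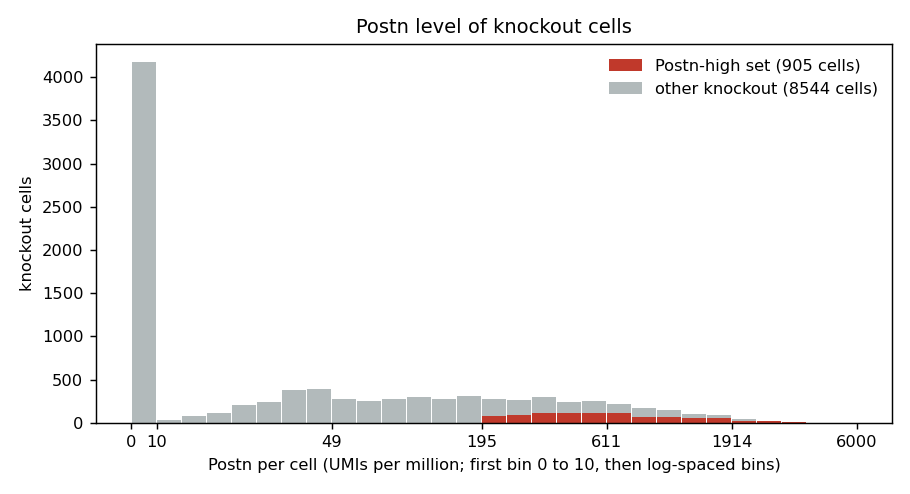
Number of knockout cells by Postn level per cell, in CPM, with the Postn-high set in red stacked under the other knockout cells in grey. The 905 members begin at 200.1 CPM and share their range with grey cells that exceeded a UMI limit, while 4146 of the 8544 other cells had no Postn UMI.

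The label calls these cells mesenchymal, and its other 3 markers were measured against that name. Col1a1, a chain of type I collagen, stood at 411 CPM in the set (404 to 419) and at 176 CPM in the other knockout cells. Lum stood at 208 CPM against 79.6 CPM, and Dcn at 75.3 CPM against 43.7 CPM. The spread over cells was wide: the quartiles of Lum were 0 and 298 CPM in the set, and those of Dcn 0 and 103 CPM. After thinning to 15000 UMIs, Col1a1 was seen in 85.3% of members, Lum in 65.1% and Dcn in 54.5%, against 62.9%, 41.3% and 37.7% of the other knockout cells. All 3 markers were seen in 324 members, or 35.8%, and none in 36, or 3.98%. In the other knockout cells these shares were 16.6% and 21.4%. Endothelial cells of the same library, with at least 10 UMIs of Cdh5, Pecam1 and Esam, served as a background, since they should lack these genes: Postn was seen in 10.8% of them at the same thinned depth (median 40914 UMIs before thinning), Col1a1 in 11.8%, Lum in 5.64% and Dcn in 3.43%. Broad markers of mesenchyme were present as well, with Vim, an intermediate filament gene, at 1551 CPM in the set and 1473 CPM elsewhere, and Pdgfra, a growth factor receptor of mesoderm, at 130 against 113 CPM. Epithelial keratins were also abundant, with Krt8 at 1274 against 1047 CPM. The summed level of the epithelial list was also higher, at 2441 against 2152 CPM. Of its 12 genes at 5 CPM or more on either side, none was at least 1.5-fold higher than in the other knockout cells. That much lower were 6, and the median log2 ratio was -0.67. Over all genes at that level 1.56% were higher and 2.67% lower. Only 8 genes of the list reached 5 CPM in the set, so the others of the 12 could not come out higher. Against the 5332 knockout cells with at least 4 UMIs of the 4 limit genes, 1 of 8 measured genes was lower and none higher. The median there was -0.03, and of 9907 genes at that level 106 were higher and 73 lower. The 3 markers were thus above the endothelial background in the set, but they were also seen, at lower levels, in many of the other knockout cells.

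Among 3604 genes at 50 CPM or more, 50 genes (1.39%) were at least 1.5-fold higher in the Postn-high set than in the other knockout cells, and 21 (0.583%) were at least 1.5-fold lower. The genes of the limits were left out of these counts. Ratios are on the log2 scale of CPM plus 1. Because the cells were chosen on Postn from the same library, these ratios describe the set and are no independent test of it. Col1a2, the second chain of type I collagen, had the largest ratio, at 409 CPM in the set and 132 CPM in the other knockout cells, a log2 ratio of 1.62 (1.59 to 1.66). Col3a1, the chain of type III collagen, stood at 430 against 177 CPM, with a log2 ratio of 1.28, and Col5a2, a chain of the type V collagen that starts fibrils, at 152 against 66.7 CPM, with a log2 ratio of 1.18. Of 7 measured fibrillar collagen genes, counted as measured at 5 CPM or more on either side, 5 were at least 1.5-fold higher and none lower, with a median log2 ratio of 1.18. Col11a1 and Col27a1 missed that size, at 0.47 and 0.50. Over all 10045 genes at 5 CPM or more, 157 (1.56%) were that much higher and 268 (2.67%) that much lower, and the median was 0.00. Among cells of 20000 to 35000 UMIs alone, 35 genes were higher and 14 lower at 50 CPM or more, of which 32 and 13 were among the calls over all cells.

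Enzymes that finish collagen differed less than collagen itself. The share of all genes at 5 CPM or more past 1.5-fold was 1.56% higher and 2.67% lower, as above. Of 22 measured genes for collagen modification and crosslinking, 2 were at least 1.5-fold higher and none lower, with a median log2 ratio of 0.31. Those were the lysyl oxidase genes Loxl2, at 178 CPM in the set and 90.8 CPM in the other knockout cells, and Loxl1, at 91.1 against 50.6 CPM. Serpinh1, the collagen chaperone of the endoplasmic reticulum, stood at 1538 against 1192 CPM, a ratio of 0.37. Of 27 secretory pathway genes only Creb3l1, a membrane-bound transcription factor that drives collagen secretion, passed 1.5-fold, at 135 against 78.3 CPM. Of 8 measured basement membrane and beaded collagens 3 were at least 1.5-fold higher and none lower, with a median log2 ratio of 0.48. All 3 were chains of the beaded type VI collagen: Col6a3, at 27.4 against 9.08 CPM, Col6a1, at 33.4 against 19.5 CPM, and Col6a2, at 15.2 against 9.49 CPM. No measured type IV chain of basement membranes passed 1.5-fold in either direction. Col4a1 stood at 120 against 139.9 CPM and Col4a2 at 59.6 against 71.4 CPM, whereas Col4a5 stood at 81.8 against 55.6 CPM and Col4a6 at 22.6 against 16.7 CPM.

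Several other matrix lists held genes past 1.5-fold in both directions. The shares over all genes at 5 CPM or more were 1.56% higher and 2.67% lower. Of 11 measured fibronectin and integrin genes 2 were higher, Fn1 and Itgb5, and 2 lower, Itga6 and Itga9, with a median of 0.36. Fn1, fibronectin, stood at 1422 CPM in the set and 901 CPM in the other knockout cells, a log2 ratio of 0.66, and Itga6, an integrin chain that binds laminin, at 5.75 against 16.2 CPM. Of 9 measured laminins and nidogens 2 were higher, Lama4 and Nid2, and 1 lower, Lama5, with a median of 0.34. Lama4, a laminin chain of vessels and mesenchyme, stood at 93.9 against 48.1 CPM and Lama5 at 6.42 against 10.7 CPM. Vcan, the large proteoglycan versican, stood at 355 against 228 CPM. Among 10 measured matricellular genes, whose products sit in the matrix and act on cells, 3 were at least 1.5-fold higher. These were Tnc, tenascin C, at 21.4 against 9.70 CPM, Tgfbi at 93.9 against 57.96 CPM and Ccn4, a Wnt-induced secreted protein gene, at 80.03 against 50.9 CPM. Sparcl1 alone was lower in this list, at 5.94 against 13.1 CPM. Fn1, Itgb5, Nid2, Vcan, Tgfbi and Ccn4 were under 1.5-fold when endothelial, endoderm, pluripotent, globin-bearing and Actc1-bearing cells were left out, and Itgb5, Vcan, Tgfbi and Ccn4 also among cells of 20000 to 35000 UMIs. Of 15 measured proteases and inhibitors 4 were higher and none lower, and the median was 0.50. Adamts1, a protease that cuts versican, stood at 41.8 against 24.4 CPM, whereas the gelatinase gene Mmp2, at 132 against 93.6 CPM, missed the 1.5-fold limit.

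Of the contractile genes, Acta2 stood out. This smooth muscle actin gene stood at 1774 CPM in the set (1757 to 1790) and at 896 CPM in the other knockout cells, a log2 ratio of 0.98. Of 13 measured smooth muscle genes it was the 1 at least 1.5-fold higher, and 2 were lower. Those were Cnn1, calponin, at 2.36 against 5.03 CPM, and Des, desmin, at 9.21 against 14.4 CPM. Cnn1 reached 5 CPM in the other knockout cells alone, so it could not come out higher. Tagln, which binds actin in smooth muscle, stood at 154 against 189 CPM. The list's median log2 ratio was 0.08. Serum response and YAP target genes showed no gene past 1.5-fold in either direction among 17 measured, with a median of 0.07.

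Transcription factor genes of mesenchyme gave a mixed picture. Among all genes at 5 CPM or more, 1.56% were at least 1.5-fold higher than in the other knockout cells and 2.67% lower. Of 18 measured mesenchymal transcription factor genes 2 were at least 1.5-fold higher in the set than in the other knockout cells, Sox9 at 34.0 against 19.9 CPM and Tcf21 at 11.1 against 6.50 CPM, and 2 were lower. Twist1, a factor of mesenchyme formation, was one of the lower genes, at 91.1 against 141.5 CPM, a log2 ratio of -0.63. It was under 1.5-fold when the limits were applied after thinning to 15000 UMIs. Snai2, which represses epithelial genes, stood at 242 against 173 CPM, a ratio of 0.48 that missed the limit. Hand1 was high throughout, at 1399 against 1234 CPM. Signalling lists differed. Of 10 measured TGF-beta response genes 4 were higher and none lower, with a median of 0.25. Of 14 measured FGF and PDGF genes 4 were higher and 1 lower, with a median of 0.19. Of 16 measured Wnt genes 3 were higher and 2 lower, with a median of 0.22. Angpt1, the ligand of the receptor encoded by Tek, stood at 98.6 against 44.7 CPM, and Tek itself at 43.9 against 28.3 CPM. Tgfb2, a transforming growth factor ligand, was lower, at 118 against 221 CPM, while of 13 measured receptor and SMAD genes of its pathway 1 was higher and none lower. Id1, a target gene of bone morphogenetic proteins, was lower, at 191 against 307 CPM.

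On the lower side, most of the largest ratios were those of genes from other cell types held in the comparison. Ttr, a transport protein gene of visceral endoderm, stood at 4.29 CPM in the set and 72.2 CPM in the other knockout cells. Ramp2, a receptor partner gene of endothelium, stood at 23.2 against 94.3 CPM, and Dppa5a, a gene of pluripotent cells, at 15.04 against 79.3 CPM. Marker sums in the set were 234 CPM over 18 endothelial genes, against 492 CPM elsewhere, 269 against 699 CPM over 17 visceral endoderm genes, 256 against 320 CPM over 18 cardiomyocyte genes and 43.8 against 195.5 CPM over 16 haematopoietic genes. Over 12 epicardial and mesothelial genes the sum was higher in the set, at 291 against 264 CPM. Of 8 measured genes 2 were at least 1.5-fold higher and 1 lower, with a median log2 ratio of 0.28. The shares over all genes at 5 CPM or more were 1.56% and 2.67%. Single genes of these lists had 0 UMIs in the whole set, namely Nppa of the cardiomyocyte list, Spi1 and Ptprc of the haematopoietic list, Apoa2 of the visceral endoderm list and Msln of the mesothelial list, while other genes of each list were present. Hba-x, an embryonic globin gene, had 337 UMIs in the set, of which 285 lay in 1 cell. Endothelial, endoderm, pluripotent, globin-bearing and Actc1-bearing cells were then left out on both sides, an alternative chosen after the values were seen. This left 31 genes higher and 6 lower, of which 29 and 6 were among the original calls. The 6 lower genes were Id1, Psat1, Slc9a3r1, Tgfb2, Twist1 and Ube2c. Col1a1 kept a log2 ratio of 1.03, Lum of 1.18, Dcn of 0.59 and Acta2 of 0.88. Among cells of 20000 to 35000 UMIs these ratios were 1.05, 1.19, 0.57 and 1.01, so Dcn was under 1.5-fold there.

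**Figure D2:**
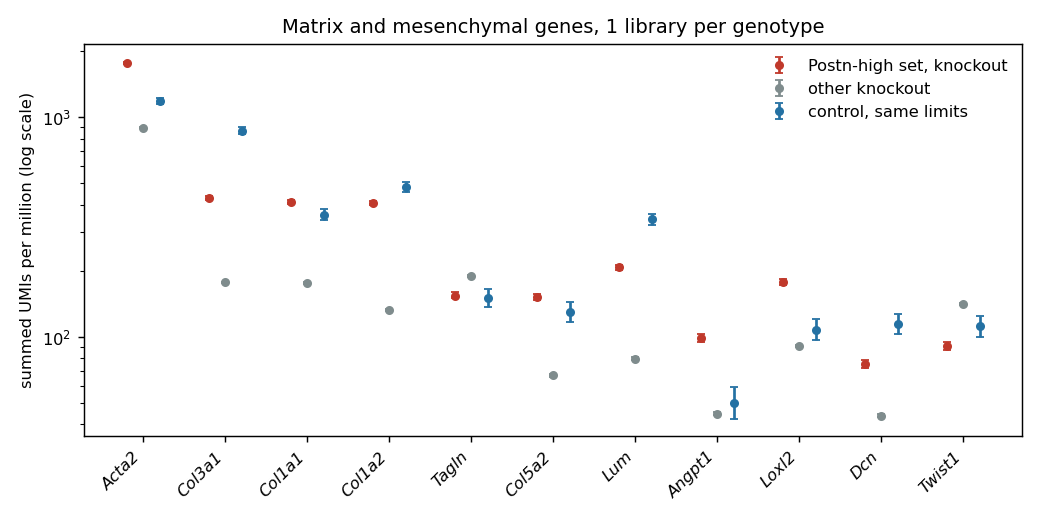
Summed level of 11 genes on a log axis, in CPM, for the Postn-high set (red, left), the other knockout cells (grey) and control cells under the same limits (blue), with exact 95% Poisson intervals that cover counting error only. Col1a2 stood at 409 in the set and 132 in the other knockout cells, while Col1a2, Lum, Dcn and Col3a1 stood highest in the 81 control cells.

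The other knockout cells were divided by which limit they failed, so that the set could be placed between its neighbours. Against 3119 cells that met the UMI limits but had under 200 CPM of Postn, 213 genes (5.76%) of 3695 were at least 1.5-fold higher and 113 (3.06%) lower, as counted at 50 CPM or more. All 7 measured fibrillar collagens were that much higher, with a median log2 ratio of 1.83, where 5.63% of all genes at 5 CPM or more were higher and 6.81% lower. Those low-Postn cells include the endothelial, endoderm and blood cells of the library. Against 5332 cells with at least 4 UMIs of the 4 limit genes, 21 genes (0.587%) of 3579 were higher and 7 (0.196%) lower, led by Col1a2 at 409 against 161 CPM and Tgfb2 at 118 against 235 CPM. Against the 1190 of these cells that had at least 200 CPM of Postn themselves, 1 gene (0.0282%) of 3552 was at least 1.5-fold higher and none (0%) lower. That gene was Mest, at 145 CPM in the set and 73.4 CPM in those cells. Of its 3674 UMIs in the set, 3566 lay in 56 of the 905 cells, so the sum is no level of the typical member. Lum stood at 208 against 148 CPM in this comparison, and Ube2c, a mitotic ubiquitin enzyme gene, at 187 against 274 CPM, both under 1.5-fold. Of the 7 fibrillar collagens none was past 1.5-fold against these Postn-rich cells, and their median log2 ratio was 0.22, where 0.263% of 9875 genes at 5 CPM or more were higher and 0.132% lower.

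Among members, the highest Postn tercile was set against the lowest, with 301 cells each and median Postn levels of 1205 and 290 CPM. Depths were close, at medians of 25523 and 26506 UMIs. Of 3589 genes 15 (0.418%) were at least 1.5-fold higher in the highest tercile and 1 (0.0279%) lower. Col1a1 stood at 546 CPM in the highest tercile and 306 CPM in the lowest, and Col1a2 at 550 against 296 CPM. Sfrp1, a secreted Wnt antagonist gene, stood at 112 against 55.1 CPM, Tek at 62.4 against 31.7 CPM and Cthrc1, a secreted collagen repeat protein gene, at 58.2 against 29.9 CPM. The lower gene was Pakap, at 50.9 against 76.3 CPM. Dcn did not follow Postn: it stood at 69.0 CPM in the highest tercile, 82.5 CPM in the middle and 74.5 CPM in the lowest. Lum stood at 258, 176 and 189 CPM in the same order.

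**Figure D3:**
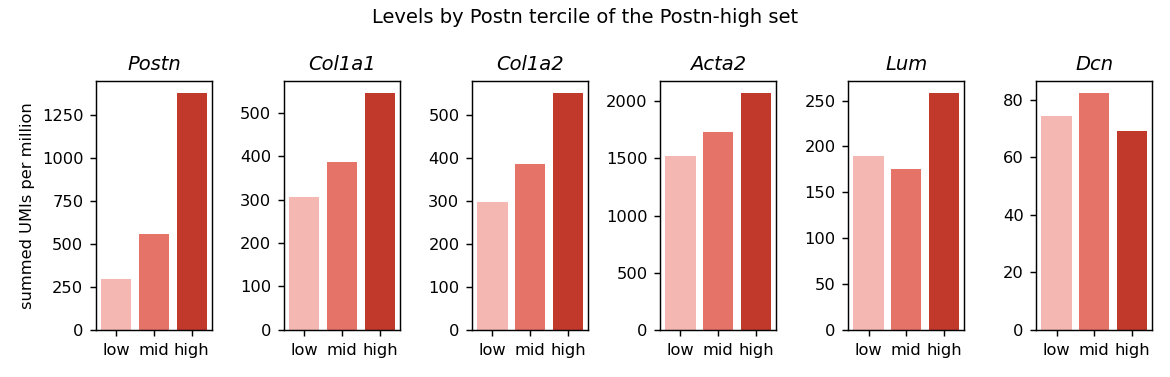
Summed level in CPM of 6 genes in the lowest, middle and highest Postn tercile of the Postn-high set, each panel with its own axis from 0. Col1a1, Col1a2 and Acta2 stood higher from tercile to tercile, to 546, 550 and 2074 in the highest, while Dcn ran at 74.5, 82.5 and 69.0.

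Likeness to Postn over single cells was ranked by Spearman's rho across all 9449 knockout cells thinned to 15000 UMIs, for 8669 genes seen in at least 10% of them. The 10 genes most like Postn included Acta2 at 0.497, Col1a2 at 0.453, Fn1 at 0.433, Tmsb4x, Serpinh1, Gas6, Angpt1, Col1a1 at 0.365 and Itgb1 at 0.351. Lum ranked 23rd, at 0.296, and Dcn 149th, at 0.179. The cells share 1 library, and thinned Postn had a rho of -0.073 with depth. Within the set the values were weak, from -0.232 to 0.291 over all genes, and no relation is read from them.

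Decorin and lumican divided the set in another way. Together they had at least 3 UMIs in 450 members and none in 195. Postn differed little between these groups, at 769 and 730 CPM. Of 3585 genes 12 (0.335%), Dcn and Lum included, were at least 1.5-fold higher in the members with decorin or lumican and 11 (0.307%) were lower. Ednrb, an endothelin receptor gene, stood at 58.8 CPM in the members with decorin or lumican and 23.8 CPM in those without, Tgfbi at 113 against 60.5 CPM and Igfbp2, an insulin-like growth factor binding protein gene, at 768 against 429 CPM. Col3a1 stood at 517 against 315 CPM and Col1a1 at 462 against 354 CPM, so type III collagen was past 1.5-fold and type I was not. On the lower side, Twist1 stood at 69.2 against 119 CPM and Pitx1, a hindlimb homeobox gene, at 14.4 against 59.8 CPM. The largest lower ratio, that of Hba-x, came from 1 cell.

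Mest varied most from member to member. This gene is imprinted, which means that 1 parental copy is normally silent, and it encodes a predicted hydrolase. Its Fano factor, the variance over the mean of thinned counts, was 40.8, against a median of 1.12 over 4563 genes. Members fell at 2 ends: 753 had no Mest UMI and 88 had 1, while 56 had at least 10, up to 187, with a median of 53.5. Only 8 members lay between. Of members 6.19% (4.71 to 7.96) thus had at least 10 UMIs, as did 4.45% (4.02 to 4.91) of the other knockout cells. Among control cells under the same limits the share was 70.4% (59.2 to 80.01), from 57 of 81 cells, and it was 70.9% in the other control cells. Without the 56 members, 48 genes in place of 50 were higher than in the other knockout cells.

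**Figure D4:**
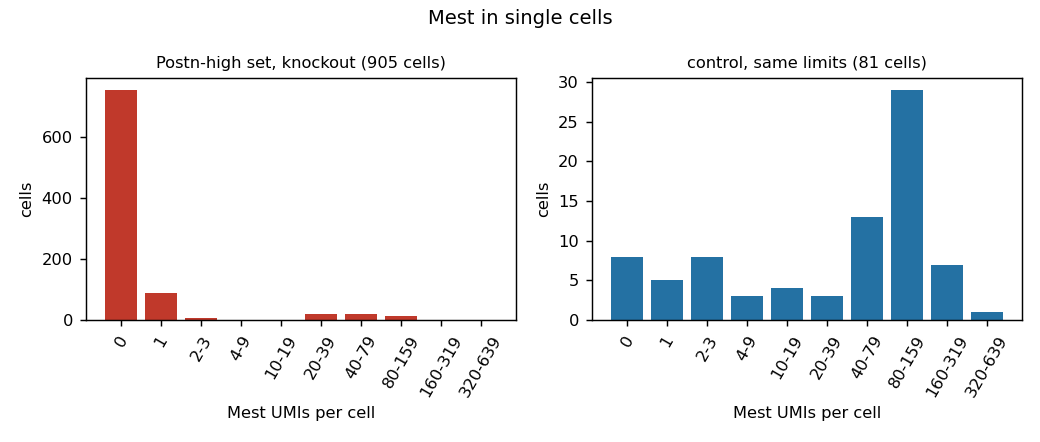
Number of cells by Mest UMIs per cell in the Postn-high set (left, 905 cells) and in control cells under the same limits (right, 81 cells), with separate vertical axes. In the set 753 cells had 0 UMIs and 56 had at least 10, whereas 57 of the 81 control cells had at least 10.

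The 56 members with at least 10 Mest UMIs were set beside the 841 with 0 or 1, a split made after the Mest values were seen. Median depths were 24948 and 25861 UMIs. Of 3652 genes, 12 (0.329%) were at least 1.5-fold higher in the Mest-rich members and 10 (0.274%) lower. Of the 35 measured genes on the imprinted list, Mest and Dcn included, 5 were that much higher, Mest itself with Plagl1, Nnat, Airn and H19, and 5 that much lower, Grb10, Zim1, Dcn, Ddc and Igf2r. The median log2 ratio was 0.10, against 309 (3.07%) higher and 380 (3.78%) lower of 10062 genes at 5 CPM or more and a median of 0.02. Plagl1, an imprinted zinc finger gene, stood at 391 CPM in the Mest-rich members and 18.3 CPM in the rest. It had at least 2 UMIs in 22 of 56 cells (39.3%, 26.5 to 53.3), against 40 of 841 (4.76%, 3.42 to 6.42). Nnat, a proteolipid gene of neurons and embryonic tissue, stood at 170 against 30.04 CPM, with at least 2 UMIs in 26.8% against 5.83% of cells. Airn, the noncoding RNA that overlaps Igf2r, had at least 2 UMIs in 25% against 1.31% of cells, and Igf2r itself stood at 782 against 1209 CPM. H19, at 149 against 15.98 CPM, was carried by few cells, with 146 of its 221 UMIs in 1 cell. Grb10, an adaptor protein gene that limits insulin-like growth factor signalling, went the other way, at 62.8 against 614 CPM, and 12.5% of the Mest-rich members against 84.8% of the rest had at least 2 of its UMIs. Peg3, Meg3 and Igf2 differed by less, at 3600 against 2561 CPM, 1921 against 1783 CPM and 2633 against 3123 CPM. Lum and Dcn were lower in the Mest-rich members, at 113 against 214 CPM and 41.8 against 77.6 CPM, whereas Col1a1 stood at 501 against 405 CPM.

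The genotypes were compared under the same limits, which only 81 of 6354 control cells met, or 1.27% (1.01 to 1.58). In these cells the knockout and the library cannot be told apart. Zbtb16 itself stood at 0.787 CPM in the Postn-high set of the knockout (0.481 to 1.22, 20 UMIs) and at 28.7 CPM in the control cells (22.9 to 35.5, 84 UMIs). In the rest of each library it stood at 1.01 CPM in the knockout and 22.2 CPM in the control. The control cells were deeper, at a median of 34200 UMIs. Their Postn ran from 206 to 2918 CPM, with a median of 373 CPM, against 553 CPM in the knockout set. In barcodes with 10 to 100 UMIs, which hold free RNA, Postn stood at 173 CPM in the knockout library and 18.2 CPM in the control.

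Of 3713 genes, 407 (11%) were at least 1.5-fold higher in the Postn-high set of the knockout than in control cells under the same limits, and 101 (2.72%) were lower. Counts of that size were also found outside the set: of 3672 genes, 443 (12.1%) were higher and 147 (4%) lower in knockout cells than in control cells when both met the UMI limits with under 200 CPM of Postn. Longer transcripts had higher ratios in the set: Spearman's rho between length and log2 ratio was 0.479 over 10098 genes, which are not independent. Genes below the lower length quartile of 1993 bases had a median ratio of -0.19, and genes above the upper quartile of 4749 bases one of 0.33. Outside the set the relation was similar. In low-Postn cells of the 2 genotypes rho was 0.413 over 10359 genes. The medians below the lower and above the upper length quartile there were -0.16 and 0.30. The part of transcript length in single ratios was not tested.

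The largest ratios on the higher side were those of Hist1h1e, a linker histone gene, at 145 CPM in the set and 31.8 CPM in the control cells, Wnt5a, a secreted Wnt ligand gene, at 89.0 against 20.8 CPM, and Lama4, at 93.9 against 23.2 CPM. Among the abundant genes Igf2, a fetal growth factor gene, stood at 3085 CPM in the set and 1026 CPM in the control cells, and Igf2r, the receptor that clears it, at 1180 against 388 CPM. Ahnak, a very large scaffold protein gene, stood at 1285 against 407 CPM. In low-Postn cells of the 2 genotypes Igf2 stood at 2123 against 575 CPM, Ahnak at 732 against 157 CPM and Lama4 at 45.6 against 9.49 CPM, which is the same direction as in the set. On the lower side Mest stood at 145 against 2144 CPM. Of 19 measured genes of cholesterol synthesis and uptake 9 were at least 1.5-fold lower and none higher, with a median log2 ratio of -0.52. Over all 10101 genes at 5 CPM or more 11.9% were that much higher and 5.73% lower, and the median was 0.02. Fdps, which makes farnesyl diphosphate, stood at 108 against 325 CPM. In low-Postn cells of the 2 genotypes 8 of 19 measured cholesterol genes were lower and none higher, with a median of -0.39. Of 8 measured cardiomyocyte genes 5 were lower in the set and none higher, with the Actc1 limit held on both sides. Only 5 genes of this list reached 5 CPM in the set. The others were measured through the control cells alone and could not come out higher. Among those others were Myl7, an atrial myosin light chain gene, at 1.496 against 42.3 CPM, and Ttn, titin, at 1.93 against 42.0 CPM. In low-Postn cells 10 of 11 measured cardiomyocyte genes were lower and none higher, under the same filter. Of 10362 genes at 5 CPM or more there, 1277 were higher and 622 lower. Actc1 stood at 7.46 CPM in the free RNA of the knockout library and 229 CPM in that of the control, and the part of free RNA in these ratios was not tested.

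Matrix lists differed in direction between genotypes. Among 9 measured laminins and nidogens the knockout set was at least 1.5-fold higher for 5 and that much lower for 1, with a median log2 ratio of 0.95. Over all genes at 5 CPM or more 11.9% were that much higher and 5.73% lower. The same direction was seen outside the set. In low-Postn cells of the 2 genotypes 5 of 8 measured laminins and nidogens were higher and none lower, with a median of 1.14. Lamc1, a laminin chain shared by most laminins, stood at 166 CPM in the knockout set and 85.7 CPM in the control cells. Of 12 measured large and cell-surface proteoglycans 3 were higher, Vcan, Gpc1 and Sdc2, and none lower, with Vcan at 355 against 147 CPM. The fibrillar collagen median was 0.02, with 1 of 7 genes higher and 1 lower. Col5a1 was higher, at 203 CPM in the knockout set and 123 CPM in the control cells, and Col3a1 lower, at 430 against 869.9 CPM. Col1a1 stood at 411 against 361 CPM and Col1a2 at 409 against 483 CPM, both under 1.5-fold. Dcn and Lum were lower, at 75.3 against 115 CPM and 208 against 343 CPM, and all 3 label markers were seen together in 35.8% of the knockout set and 46.9% (35.7 to 58.3) of the control cells, intervals that meet those of the set's 32.7 to 39.0. Of 11 measured fibronectin and integrin genes 4 were higher and none lower in the set, with a median of 0.50. In low-Postn cells of the 2 genotypes 7 of 11 were higher and 1 lower, with a median of 0.71. Within the set Fn1, at 1422 against 693 CPM, and its integrin partner gene Itgb1, at 832 against 367 CPM, were higher. Acta2 stood at 1774 against 1188 CPM, a log2 ratio of 0.58 just under the limit. Igf2bp3, the RNA-binding protein gene named in the study's title, stood at 227 against 192 CPM, and at 210.5 CPM in the other knockout cells.

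**Figure D5:**
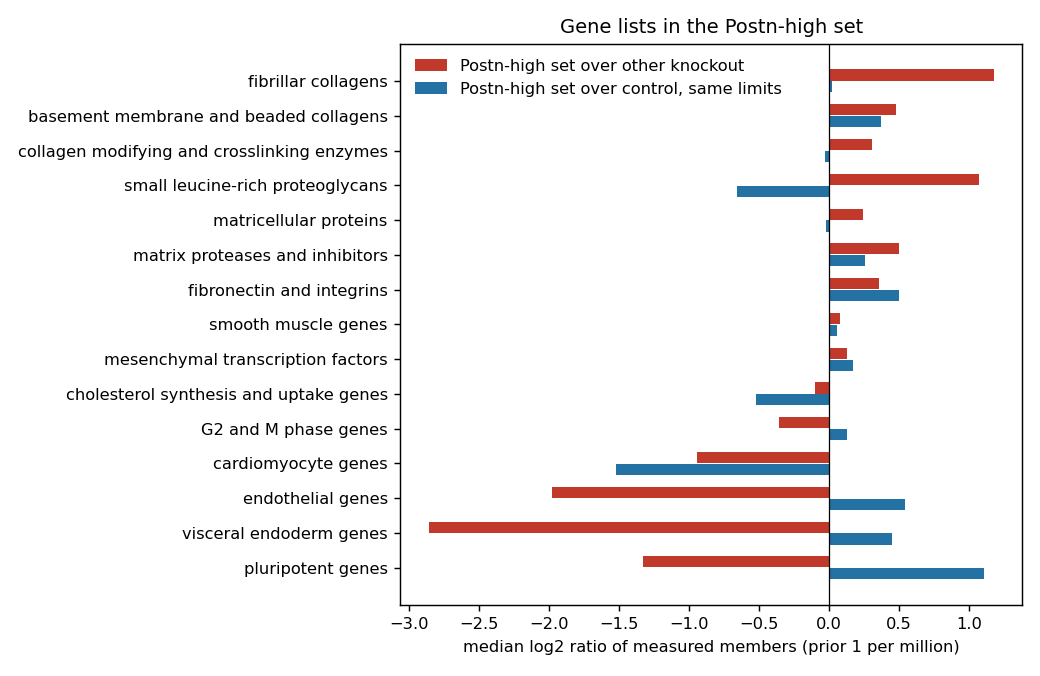
Median log2 ratio of the measured genes of 15 lists, for the Postn-high set over the other knockout cells (red, upper bar) and over control cells under the same limits (blue, lower bar). Fibrillar collagens had medians of 1.18 and 0.02 and cholesterol genes of -0.10 and -0.52, while lists of endothelial, endoderm and pluripotent genes were below 0 only against the other knockout cells.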

How the data were processed

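The authors deposited 1 unfiltered matrix per library of raw UMI counts over 32285 features, written by Cell Ranger 4 per the file headers. Per the submitters' processing notes R 4.1.1 was used, and GRCm39 and mm39 are both named. Kits were MGI DNBelab C, per the labels' protocols. The deposited barcode and feature lists served as names.

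Counts were summed over cells and scaled to a total of 1000000 (CPM), and log2 ratios were taken with a prior of 1 CPM (Python 3.11.15, numpy 2.4.6, scipy 1.17.1). Sums carry exact Poisson and shares exact Clopper-Pearson 95% intervals, which cover counting error only. For shares of cells with a UMI, Fano factors, rank correlations and the split by Dcn and Lum each cell was thinned to 15000 UMIs. The step was tested on simulated counts. Transcript lengths came from GENCODE M21 on GRCm38, joined by gene identifier to 99.97% of genes compared.

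The members, the 48 gene lists and the alternatives were chosen with earlier results of these data known. Named genes were the 15 largest ratios in each direction at 50 CPM or more against the other knockout cells and the 10 largest in other comparisons, without predicted, ribosomal or mitochondrial genes. Up to 5 list genes by level and 3 by ratio, the 12 highest Fano factors, the 10 genes most like Postn and the genes of the rule were also nameable, and the text gives a selection of these; some are not reported here. Alternatives covered cell limits, scaling (edgeR 4.0.16 TMM in R 4.3.3, median of ratios), the prior and the filter on low values.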

Additional observations from a re-analysis of the deposited data

Results flagged for a closer look

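Igfbp5, an insulin-like growth factor binding protein gene, was the 1 gene of 3072 compared in both libraries that was past 1.5-fold in opposite directions when Postn-high cells were set against the remaining cells of their own library. In the knockout library it stood at 78.7 CPM in the set and 49.7 CPM in the other cells, a log2 ratio of 0.65. That ratio fell under 1.5-fold without endothelial, endoderm, pluripotent, globin-bearing and Actc1-bearing cells. It also did so among cells of 20000 to 35000 UMIs and with equal weight per cell. It stayed past 1.5-fold with at least 30000 UMIs and with the limits applied after thinning. In the control library it stood at 49.8 CPM in the 81 cells under the same limits and 168 CPM in the other cells, a ratio of -1.73. The difference between the ratios was 2.38, and it was not tested because each genotype has 1 library.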

How the results depend on the processing

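No paired analysis was possible because 1 library stands for each genotype and nothing was tested. The share of knockout cells in the set, 9.58%, depended on the limits that define it: it was 5.98% with at least 30000 UMIs, 7.19% with at most 5% mitochondrial UMIs, 12.8% with Postn of at least 100 CPM, 6.41% with at least 400 CPM, 22.2% without the UMI limits and 17.8% with all cells thinned first. Against the other knockout cells, counts of genes at least 1.5-fold higher and lower were 125 and 149 from 10 CPM, 191 and 648 with no filter on low values, and 31 and 6 without cells of other classes. Against control cells they were 1017 and 380 from 10 CPM and 1875 and 1244 with no filter. The lower count there was 166 with Postn of at least 400 CPM and 170 in cells of 20000 to 35000 UMIs. All other settings kept these counts within 1.5 times. A ratio or median counted as reversed only if its main value was past 1.5-fold. Smaller values that changed sign were not counted, so the number of reversals is limited by that rule. The reversals under it were these. Without cells of other classes Hba-x came to 0.14, Ramp2 to 0.28, the endothelial median to 0.08 and the haematopoietic median to 0.55. Against control cells the median of fibril-associated collagens came to -0.38 with Postn of at least 400 CPM and to -0.35 in cells of 20000 to 35000 UMIs, where the haematopoietic median came to -0.02. Of 496 alternative ratios of named genes against the other knockout cells, 253 stayed within the counting interval, 241 moved beyond it and 2 reversed, and of 368 against control cells these counts were 310, 58 and 0. Of list medians 134 of 767 moved against the other knockout cells and 32 of 752 against control cells. With 81 control cells, low genes there rest on few UMIs. The cells of other classes and the cells of 20000 to 35000 UMIs were chosen as alternatives after the values were seen, as was the removal of Mest-rich members. The causes of these shifts were not tested.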

Other observations

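Cell division genes were mostly under 1.5-fold. Of 30 measured genes of G2 and M phase 1 was at least 1.5-fold lower than in the other knockout cells and none higher, with a median log2 ratio of -0.36; over all genes at 5 CPM or more 2.67% were that much lower. Ube2c was that gene, at 187 against 297.5 CPM. It was not past 1.5-fold among cells of 20000 to 35000 UMIs, among cells of at least 30000 UMIs, or with the limits applied after thinning. Ccnb1, the mitotic cyclin gene, stood at 109 against 157 CPM. S phase genes had a median of -0.12 over 30 genes with none past 1.5-fold. Depth moved with this: Top2a, a topoisomerase gene of dividing cells, stood at 466 against 611 CPM over all cells and at 329 against 362 CPM in cells of 20000 to 35000 UMIs.

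Metabolic lists differed little from the other knockout cells. Of 20 measured hypoxia response genes 1 was past 1.5-fold, Egln3, an oxygen sensor gene, at 2.32 CPM in the set and 5.31 CPM in the other knockout cells, and the median was -0.11. Egln3 reached 5 CPM in the other knockout cells alone, so it could not come out higher. Of all genes at 5 CPM or more 1.56% were at least 1.5-fold higher and 2.67% lower. Ldha, lactate dehydrogenase, stood at 241 against 349 CPM and Slc2a1, a glucose transporter gene, at 1852 against 1568 CPM, both under 1.5-fold. Psat1, a serine synthesis gene, was lower, at 37.95 against 72.8 CPM, and it stayed past 1.5-fold without cells of other classes. The median was -0.09 for 18 oxidative phosphorylation genes and -0.12 for 80 cytosolic ribosomal protein genes, with none past 1.5-fold in either list.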
